A study of Mus musculus with 16 samples.

Results

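Fam32a, Scoc, Gadd45gip1 and Wdfy1 are 4 of the 25006 genes counted in ribosome-bound mRNA of dopaminergic neurons of the mouse substantia nigra pars compacta (SNc). They were picked by name because their counts differed strongly between control and MCU-KO mice and because they lie outside the pathways the study examined. The genotype contrast itself therefore chose them, and their levels by genotype are given below as a description with no test. Fam32a was higher in MCU-KO mice, and Scoc, Gadd45gip1 and Wdfy1 were lower. In each of the 4 genes every MCU-KO mouse lay on 1 side of every control mouse.

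The control group held 8 DAT-Cre+/- mice and the MCU-KO group 8 DAT-Cre+/- MCU fl/fl mice, with 1 library per mouse. In DAT-Cre mice the recombinase is made under the dopamine transporter gene Slc6a3, so Mcu, which encodes the pore subunit of the mitochondrial calcium uniporter, is deleted in cells that express that transporter. Mice of both genotypes carried DAT-Cre and received in the SNc an AAV9 vector with a Cre-dependent, Flag-tagged ribosomal protein, and the tagged ribosomes were collected at postnatal day 45, 30 days after the injection. According to the methods, control mice were bred from DAT-Cre and C57/BL6 parents and MCU-KO mice from parents carrying the floxed Mcu allele, so that breeding and deletion cannot be told apart in these groups. The files hold counts per gene and no sequence variants, and the strain of origin of a locus was not measured here.

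The 4 genes have unrelated roles. Fam32a encodes a protein of the spliceosome that acts when exons are joined. Scoc encodes a short coiled-coil protein of the Golgi that binds the small GTPase Arl1 and takes part in starvation-induced autophagy. Gadd45gip1, also called Crif1, encodes a protein of the large subunit of the mitochondrial ribosome that is needed for the synthesis of respiratory chain subunits encoded by mitochondrial DNA. Wdfy1 encodes an endosomal protein with WD repeats and a lipid-binding FYVE domain, described as an adaptor in signalling by the Toll-like receptors TLR3 and TLR4.

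On the GRCm38 assembly, the build that mm10 names, 3 of the genes lie on chromosome 8. Fam32a (ENSMUSG00000003039) spans chr8:72219730-72224418 on the plus strand, and Scoc (ENSMUSG00000063253) spans chr8:83430084-83458391 on the minus strand. Gadd45gip1 (ENSMUSG00000033751) spans chr8:84831522-84835482 on the plus strand. Measured between their lower coordinates, Scoc and Gadd45gip1 are 1.40 Mb apart, and Fam32a is 11.2 Mb from Scoc and 12.6 Mb from Gadd45gip1. Wdfy1 (ENSMUSG00000073643) spans chr1:79702262-79776143 on the minus strand. Mcu lies on chromosome 10 and Slc6a3 on chromosome 13, so that none of the 4 genes shares a chromosome with either engineered locus.

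The upstream DNA of Fam32a, the gene with more counts in MCU-KO mice, is shown beside that of Scoc, a gene with fewer, because the 2 differ in direction on the same chromosome. RefSeq promoters (GRCm38.p6) were matched for these 2 of the 4 genes, with 2 starts for Scoc. Each sequence below runs on the gene's strand from 250 to 41 bases before the start, and the window of the inner Scoc start lies within the Scoc gene. Capitals mark matches on either strand to CCAAT, to GGAAGT or to TATAAA, the letters of the CCAAT box, of an ETS-type site and of a TATA box.
Fam32a, chr8:72219495-72219704, plus strand: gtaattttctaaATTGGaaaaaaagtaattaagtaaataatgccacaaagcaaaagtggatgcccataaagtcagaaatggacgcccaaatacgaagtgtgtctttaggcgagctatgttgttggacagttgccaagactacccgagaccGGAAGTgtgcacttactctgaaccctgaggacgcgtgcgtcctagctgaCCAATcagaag
Scoc, upstream start, chr8:83458437-83458646, minus strand: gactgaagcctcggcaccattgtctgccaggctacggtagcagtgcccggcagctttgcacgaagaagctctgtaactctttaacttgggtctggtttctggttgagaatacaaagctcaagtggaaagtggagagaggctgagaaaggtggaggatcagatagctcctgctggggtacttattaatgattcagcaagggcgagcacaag
Scoc, inner start, chr8:83442703-83442912, minus strand: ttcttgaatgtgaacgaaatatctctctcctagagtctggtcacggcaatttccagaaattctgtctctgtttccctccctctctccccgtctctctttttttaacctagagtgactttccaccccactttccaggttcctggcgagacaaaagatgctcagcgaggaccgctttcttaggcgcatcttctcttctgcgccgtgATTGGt
The Fam32a window held 2 matches to CCAAT and 1 to GGAAGT. The window of the upstream Scoc start held none of the 3 motifs, and that of the inner start held 1 match to CCAAT. Among 32851 RefSeq promoter windows of the same length, 29.9% held CCAAT, 15.6% GGAAGT and 9.56% TATAAA, so that each of these matches is common. The Fam32a window held 8 CG dinucleotides and the Scoc windows 5 and 9, against a median of 4 over all windows. The letters describe the windows only, and binding to them was not measured.

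The deleted gene was examined first. Mcu had between 120.3 and 828.2 normalized counts in control mice, with a mean of 454.0 ± 274.2 (SD, n = 8), and between 5.82 and 410.1 in MCU-KO mice, with a mean of 199.8 ± 139.3 (SD, n = 8). Normalized counts are counts divided by DESeq2's size factor for the library. The 2 genotypes overlapped in Mcu, whose log2 fold change was -1.19 with an SE of 0.590. All 8 control mice and all 8 MCU-KO mice had counts for the gene, and counts over a whole gene do not separate the deleted exons from the rest. The paper checked the deletion by other means, with quantitative RT-PCR of Mcu in mRNA from tagged ribosomes and with measurements of mitochondrial calcium.

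Fam32a was counted at high depth in every mouse, with at least 2045 counts. Normalized counts in control mice ran from 1890.3 to 3780.2 with a median of 2557.9, and in MCU-KO mice from 5502.9 to 9250.0 with a median of 8164.7. The means were 2787.5 ± 648.6 and 7895.5 ± 1206.9 (SD, n = 8 each), a log2 fold change of 1.502 (SE 0.137) or 2.83-fold higher in MCU-KO mice. MCU-KO mouse 4 was the lowest of its genotype and still stood 1.46-fold above control mouse 1, the highest control. Per kilobase of exon, the mean level was 632.2 in control mice and 1790.8 in MCU-KO mice, which is the 84.7th and the 94.1st percentile of the tested genes.

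Scoc went the other way. It had between 3385.9 and 7894.2 normalized counts in control mice, with a median of 4618.4, and between 1644.2 and 2346.4 in MCU-KO mice, with a median of 1995.2. The means were 4842.7 ± 1370.0 and 2003.5 ± 237.3 (SD, n = 8 each), a log2 fold change of -1.27 (SE 0.142) or 2.42-fold lower in MCU-KO mice. Control mouse 1 stood apart from the other controls, the next of which had 5149.9, and MCU-KO mice lay close together. The coefficient of variation was 28.3% in control mice and 11.8% in MCU-KO mice.

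Gadd45gip1 had between 1022.7 and 1863.2 normalized counts in control mice, with a median of 1338.3. In MCU-KO mice it ran from 420.0 to 682.7 with a median of 544.1. The means were 1334.1 ± 258.1 and 539.5 ± 75.4 (SD, n = 8 each), a log2 fold change of -1.31 (SE 0.175) or 2.47-fold lower in MCU-KO mice. The spread relative to the mean was similar in both genotypes, with coefficients of variation of 19.3% and 13.97%. Its level per kilobase of exon was at the 82.4th percentile of tested genes in control mice and at the 66.3rd in MCU-KO mice.

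Wdfy1 showed the lowest levels of the 4 genes in MCU-KO mice and the widest spread. Control mice held between 1146.6 and 2081.0 normalized counts with a median of 1542.6. MCU-KO mice 1 to 8 held 99.99, 83.8, 427.3, 313.9, 476.3, 86.1, 541.1 and 160.1. The means were 1553.0 ± 297.1 and 273.6 ± 189.8 (SD, n = 8 each), a log2 fold change of -2.50 (SE 0.372) or 5.67-fold lower in MCU-KO mice. The MCU-KO mice differed among themselves by up to 6.46-fold and the control mice by up to 1.81-fold. No MCU-KO mouse was without Wdfy1 counts, the lowest having 86.

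**Figure D1:**
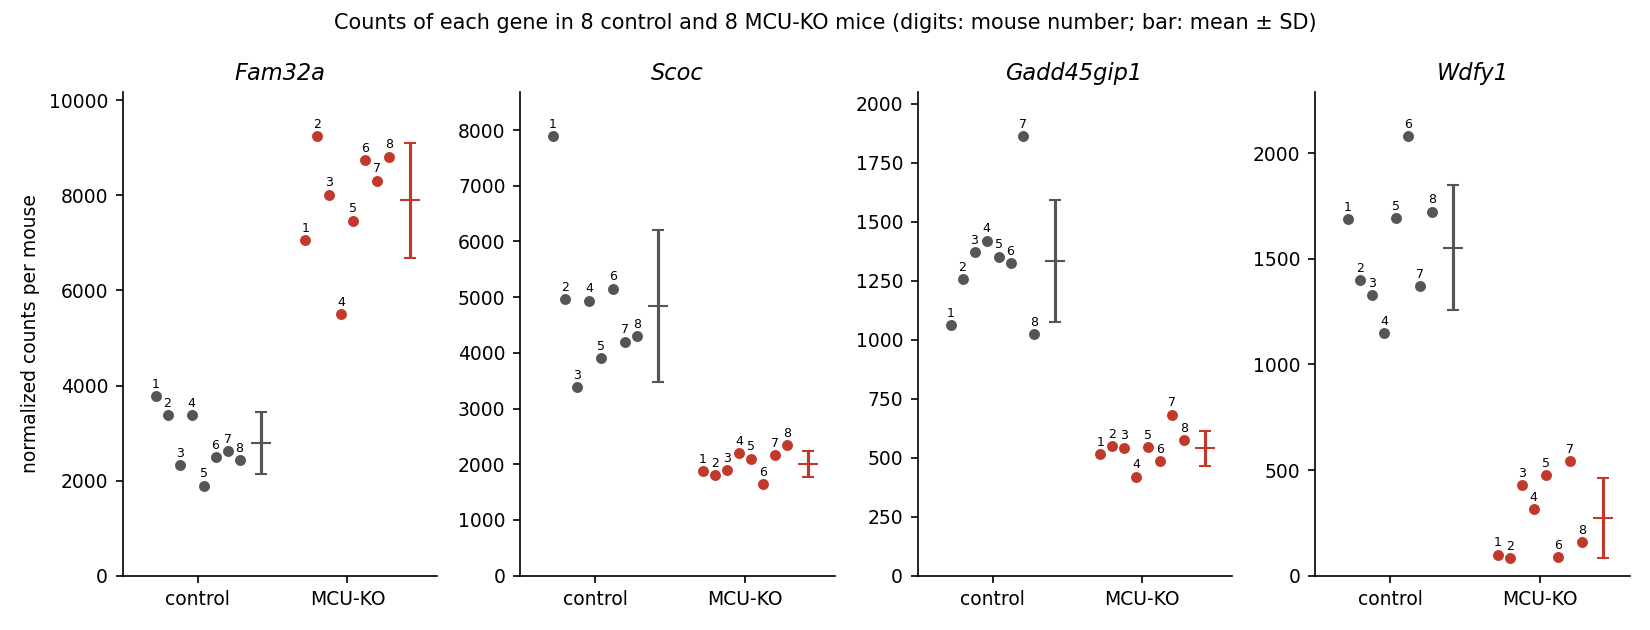
Normalized counts (counts divided by DESeq2's size factors, linear axis from 0) of Fam32a, Scoc, Gadd45gip1 and Wdfy1 in 8 control and 8 MCU-KO mice; each point is 1 mouse and the bars give the mean and SD. In all 4 panels the 2 genotypes are separated. In Wdfy1, 4 MCU-KO mice had fewer than 200 normalized counts and 4 had at least 200.

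The spacing of the mice was described as the gap between neighbouring values on the log2 scale. Between the genotypes, the empty gap was 0.54 for Fam32a, 0.53 for Scoc, 0.58 for Gadd45gip1 and 1.08 for Wdfy1. Within a genotype, the largest gap in Fam32a was 0.36 in control mice and 0.36 in MCU-KO mice, smaller than the gap between the genotypes. Gadd45gip1 gave the same picture, with 0.39 and 0.25. In Scoc the step from the other controls to control mouse 1 was 0.62, wider than the gap that separated the genotypes. In Wdfy1 the MCU-KO mice were split by a gap of 0.97 between 160.1 and 313.9 normalized counts, with mice 1, 2, 6 and 8 below it and mice 3, 4, 5 and 7 above it, whereas the largest gap among control mice was 0.27. The biological coefficient of variation, the spread edgeR estimates beyond counting error, was 48.9% for Wdfy1 against 37.8% for genes of its abundance. It was 20.003% for Fam32a, 20.9% for Scoc and 25.9% for Gadd45gip1, each below the value for its abundance.

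Separation of this kind was rare. Of 12390 tested genes, 32 had no overlap between the genotypes, which is 0.258%, and 22 (0.178%) had a Benjamini-Hochberg adjusted p under 0.05 in edgeR's quasi-likelihood test. Of these 22, 11 (0.0888% of tested genes) were higher in MCU-KO mice and 11 (0.0888%) were lower. Before adjustment, 547 genes (4.41%) had a p under 0.05. The 4 genes were picked from such genes, so nothing is read from their place among them. Just inside that threshold lay Ocel1, with an adjusted p of 0.0487 (edgeR).

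Wdfy1 overlaps Mrpl44, which encodes a protein of the mitochondrial ribosome on the opposite strand, over 126 bases. Mrpl44 had means of 983.3 ± 464.8 and 999.4 ± 255.3 normalized counts (SD, n = 8 each), with a log2 fold change of 0.02. Since the strand setting of the counting is not given in the sources used here, reads from overlapping genes cannot be told apart, a limit that also applies to Gadd45gip1. Fam32a and Scoc overlap no other annotated gene.

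Sequence shared with genes elsewhere was measured by aligning the transcripts of Fam32a, Scoc and Wdfy1 to all GENCODE M21 transcripts. Stretches of at least 100 bases with at least 90% identity were shared with 391 other genes for Fam32a, 2 for Scoc and 1102 for Wdfy1. Scoc matched Gm7335 with 98.4% identity over 373 bases and Gm43602 with 94.2% over 295 bases, and Fam32a matched Gm5590 with 93.0% over 345 bases. These 3 are annotated as processed pseudogenes and were not analysed here. The longest matches of Wdfy1 were 181 bases with Gm15823 (90.6% identity) and 177 bases with 4930402H24Rik (90.4% identity). Of the tested genes sharing sequence with Fam32a (226) or Wdfy1 (676), 0 passed edgeR's test, against 0.178% of all tested genes. An unadjusted p under 0.05 was seen in 10 and 31, against 4.41% of all tested genes. DESeq2 called 0 and 1, against 50 of all 12390 tested genes. The share of reads that matched several places was not measured here.

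The genes around the 4 members were chosen by position alone, not by their own values. The positions were set by members picked from the same contrast in the same mice. Shares near them are therefore not independent of that choice, and no set test was run. Within 5 Mb of Fam32a, Scoc or Gadd45gip1, 192 other genes were tested. Of these, 3 (1.56%) passed edgeR's test (adjusted p under 0.05), against 0.145% of all tested genes other than the 4 members. Before adjustment, 18 of the 192 (9.38%) had a p under 0.05, against 4.38% of all tested genes other than the 4 members. Genotypes without overlap were seen in 5 of the 192 (2.60%), against 0.226% of all tested genes other than the 4. The median size of the log2 fold change, in either direction, was 0.27 near the 3 genes and 0.21 over all other tested genes. The 3 neighbours that passed all lay on the same side of Fam32a, at lower coordinates.

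Tmem59l, which encodes a neuronal transmembrane protein, lies at -1735.9 kb from Fam32a by lower coordinate. It had between 11175 and 14570 normalized counts in control mice and between 8214.2 and 10383 in MCU-KO mice, with no overlap. The mean fell from 12747 ± 1406 to 9086.6 ± 678.8 (SD, n = 8 each), a log2 fold change of -0.49 (SE 0.0798, edgeR adjusted p = 0.00335).

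Slc5a5, which encodes the sodium/iodide symporter, lies at -1336.8 kb from Fam32a. It had between 417.2 and 1337.3 normalized counts in control mice and between 157.9 and 404.8 in MCU-KO mice, again without overlap. The mean fell from 935.1 ± 335.6 to 282.8 ± 93.7 (SD, n = 8 each), a log2 fold change of -1.73 (SE 0.295, edgeR adjusted p = 0.00557). The call was lost with limma-voom (adjusted p = 0.0787). Controls 1 and 8 were the lowest of their genotype and lay close to the highest MCU-KO mice.

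Ocel1, which encodes a protein with an occludin-like domain, lies at -848.4 kb from Fam32a. It had between 154.4 and 355.1 normalized counts in control mice and between 384.8 and 991.4 in MCU-KO mice. The mean rose from 251.4 ± 73.3 to 654.5 ± 210.4 (SD, n = 8 each), a log2 fold change of 1.38 (SE 0.287, edgeR adjusted p = 0.0487). This call was lost when any 1 of control mice 1, 2, 3, 5, 6 and 7 or MCU-KO mice 1, 3, 5, 6, 7 and 8 was left out, with an adjusted p of up to 0.165 in edgeR.

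The genotypes also did not overlap in Plvap and Wdr83os, which did not pass edgeR's test. Plvap, a gene of endothelial cells, had means of 162.5 ± 105.6 and 674.1 ± 262.1 normalized counts (SD, n = 8 each; log2 fold change 2.05, edgeR adjusted p = 0.409). The endothelial markers, of which 3 of 7 were tested, summed to 7.50 to 35.3 CPM (counts scaled to the library total) in control mice and 5.06 to 21.96 CPM in MCU-KO mice. Wdr83os had means of 969.2 ± 147.3 and 515.4 ± 102.9 normalized counts (SD, n = 8 each; log2 fold change -0.91, edgeR adjusted p = 0.0530).

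**Figure D2:**
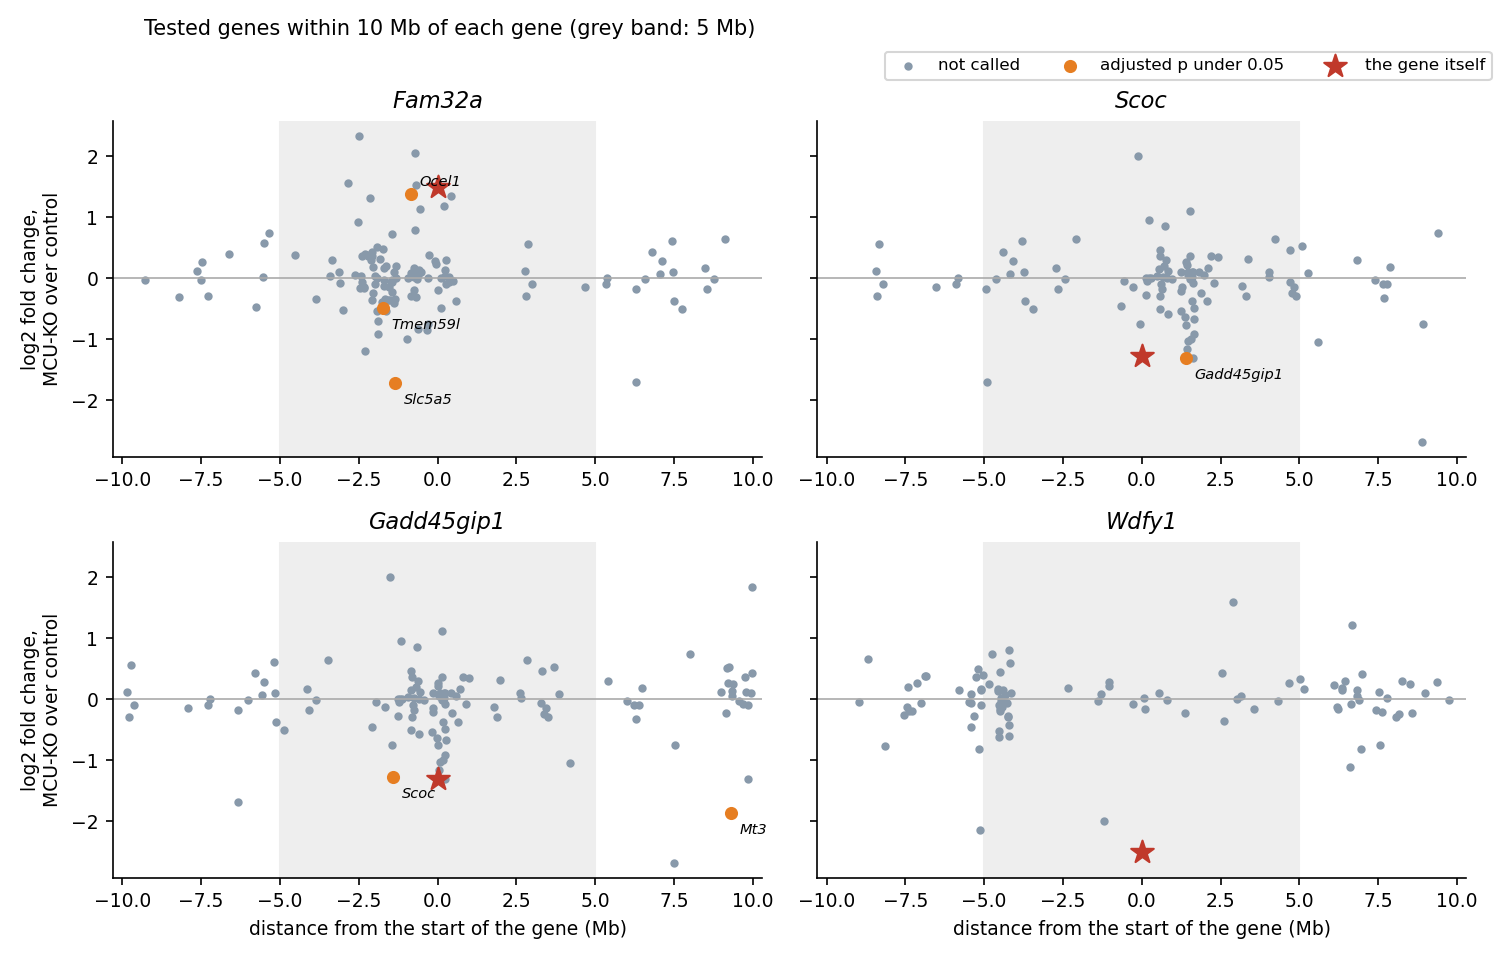
Log2 fold change of MCU-KO over control (vertical axis) for each tested gene within 10 Mb of a member (grey band, 5 Mb), plotted against the distance of its start from the member's start in Mb (horizontal axis); stars are the members, and orange, labelled points are genes that passed edgeR's test, with Scoc and Gadd45gip1 shown in each other's panel. Tmem59l, Slc5a5 and Ocel1 lie to the left of Fam32a. In the Wdfy1 panel 0 of 43 neighbours within 5 Mb passed, against 0.145% of all tested genes other than the members.

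The neighbours lay on both sides of 0. Around Fam32a, 53 of 104 tested genes within 5 Mb had a higher mean in MCU-KO mice and 51 a lower one. Of the 85 genes around Scoc, 38 were higher and 47 lower, and of the 79 around Gadd45gip1, 35 were higher and 44 lower, with 0 passing edgeR's test around either gene. Before adjustment 7 genes around Scoc (8.24%) and 7 around Gadd45gip1 (8.86%) had a p under 0.05, against 4.38% of all tested genes other than the 4 members. DESeq2 called 4 around each. The starts of Scoc and Gadd45gip1 are 1.40 Mb apart, so their windows share most of their genes. The 7 genes before adjustment and the 4 of DESeq2 are the same genes in both windows, not separate results. DESeq2's Wald test called 9 of the 192 neighbours on chromosome 8, against 50 of all 12390 tested genes, the 4 members included. Among the 9 were Slc5a5, Ocel1, Tmem59l, Hapln4, Tecr, Plvap, Elmod2 and Wdr83os.

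The neighbours of Wdfy1 gave no call. Of 43 tested genes within 5 Mb, 0 passed edgeR's test, 0 had an unadjusted p under 0.05, 0 passed DESeq2's test and 0 had genotypes without overlap. Of all tested genes other than the 4 members, 0.145% passed edgeR's test. An unadjusted p under 0.05 was seen in 4.38% of them and no overlap in 0.226%. With so few genes near Wdfy1, 0 calls does not set the region apart. Their median absolute log2 fold change was 0.17. Within 10 Mb, 0 of 98 passed edgeR's or DESeq2's test and 2 had an unadjusted p under 0.05.

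The 3 nearest tested genes on each side of each member gave 22 flanking genes that do not overlap the member. Of these, 4 had a 95% confidence interval that left out 0, which corresponds to an unadjusted p under 0.05 in edgeR. That was seen in 4.38% of all tested genes other than the 4 members. With adjustment 0 of the 22 passed edgeR's test, against 0.145% of those genes. Next to Fam32a, Rab8a, a GTPase of vesicle transport, had 0.23 on the log2 scale (interval -0.11 to 0.57), and Ap1m1, an adaptor of clathrin coats, had -0.19 (-0.65 to 0.26). Next to Wdfy1, Scg2, which encodes secretogranin II, had -0.07 (-0.26 to 0.11). Near Scoc the flanks were less even. Elmod2, which encodes an activator of GTPase activity in Arl proteins, had a log2 fold change of 2.00 (0.86 to 3.15, edgeR adjusted p = 0.366). Clgn, an endoplasmic reticulum chaperone, had -0.76 (-1.25 to -0.27, edgeR adjusted p = 0.649), and Tecr, an enzyme of very-long-chain fatty acid synthesis, had -0.28 (-0.42 to -0.14, edgeR adjusted p = 0.144). Beside Gadd45gip1, Calr, a calcium-binding chaperone, had 0.27 (0.01 to 0.52, edgeR adjusted p = 1.00).

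**Figure D3:**
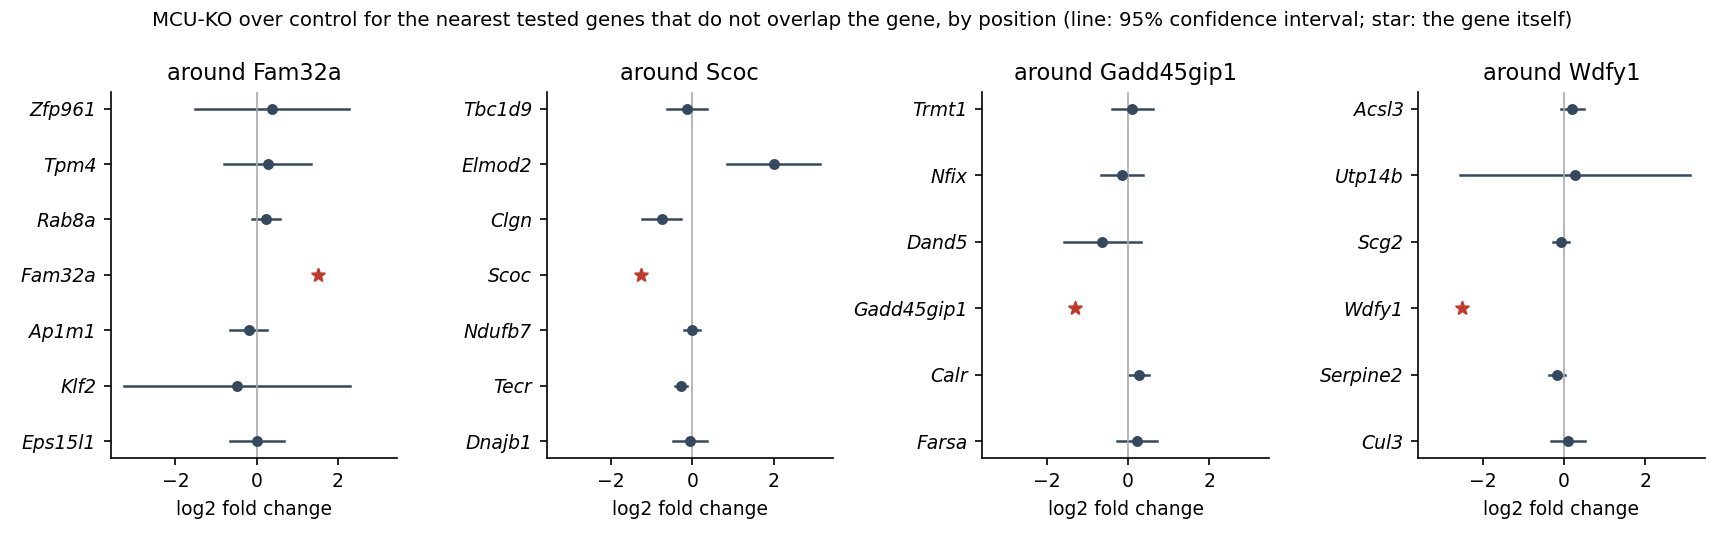
Log2 fold change of MCU-KO over control (horizontal axis) for the 3 nearest tested genes on each side of each member, less those that overlap it, in genome order; points are edgeR estimates with 95% confidence intervals, and the star marks the member. Elmod2 beside Scoc has the widest departure among the flanking genes, at 2.00.

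Chromosome 8 held 676 of the tested genes, 5.46%, and 7 of the 22 genes called, 31.8%. Besides Fam32a, Scoc and Gadd45gip1, which were picked from those calls, they were Tmem59l, Slc5a5, Ocel1 and Mt3, a metallothionein gene 9.32 Mb beyond Gadd45gip1. The 7 genes span 23.7 Mb, and 2 of the genes were higher and 5 lower in MCU-KO mice. Among the 673 tested genes of chromosome 8 other than the 3 members, 4 passed edgeR's test (0.594%). The share in edgeR was 0.145% of all tested genes other than the 4 members. DESeq2 called 12 of the 673, against 50 of all 12390 tested genes, the 4 members included. Chromosome 3, from which no gene was left out, also had 4 calls, among 596 tested genes (0.671%). With its 3 members counted, chromosome 8 had 1.04%, the highest share of any chromosome, but those 3 were picked from the calls. On chromosome 1, 0 of the 693 tested genes other than Wdfy1 passed, and on chromosome 10, which carries Mcu, 0 of 586 passed. DESeq2 also called 0 on both chromosomes. There 16 and 17 genes had an unadjusted p under 0.05 in edgeR, against 4.38% of all tested genes other than the 4 members.

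Covariation was tested within a genotype, where deviations from the genotype mean had no part in the choice of the genes. Pearson's r of log2 CPM was computed for each of the 6 pairs of genes in each genotype, giving 12 correlations with exact two-sided permutation tests over all pairings of 8 mice. In 0 of the 12 was the Benjamini-Hochberg adjusted p under 0.05, by Pearson's r or by Spearman's rho, and 1 had an unadjusted p under 0.05 by either measure. With 8 mice the smallest p the pairings allow is 5e-05.

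The highest r was that of Fam32a with Scoc in control mice, with r = 0.77 (exact permutation p = 0.0181, adjusted p = 0.217) and rho = 0.79 (exact permutation p = 0.0279, adjusted p = 0.335). Without the 2 mice farthest from the median of Fam32a, r was 0.61. In MCU-KO mice the same pair gave r = -0.36 (exact permutation p = 0.399, adjusted p = 0.628) and rho = -0.24. The difference between the genotypes was not tested.

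In MCU-KO mice, Fam32a with Gadd45gip1 gave r = 0.64 (exact permutation p = 0.109, adjusted p = 0.454), and r was -0.07 without the 2 mice farthest from the median of Fam32a. Scoc with Wdfy1 gave r = 0.60 (exact permutation p = 0.114, adjusted p = 0.454), and 0.74 without the 2 farthest mice. The pair closest together on the chromosome, Scoc and Gadd45gip1, gave r = -0.44 in control mice and 0.22 in MCU-KO mice (exact permutation p = 0.258 and 0.619, adjusted p = 0.628 for both). The sign of r was the same in both genotypes for 2 of the 6 pairs.

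**Figure D4:**
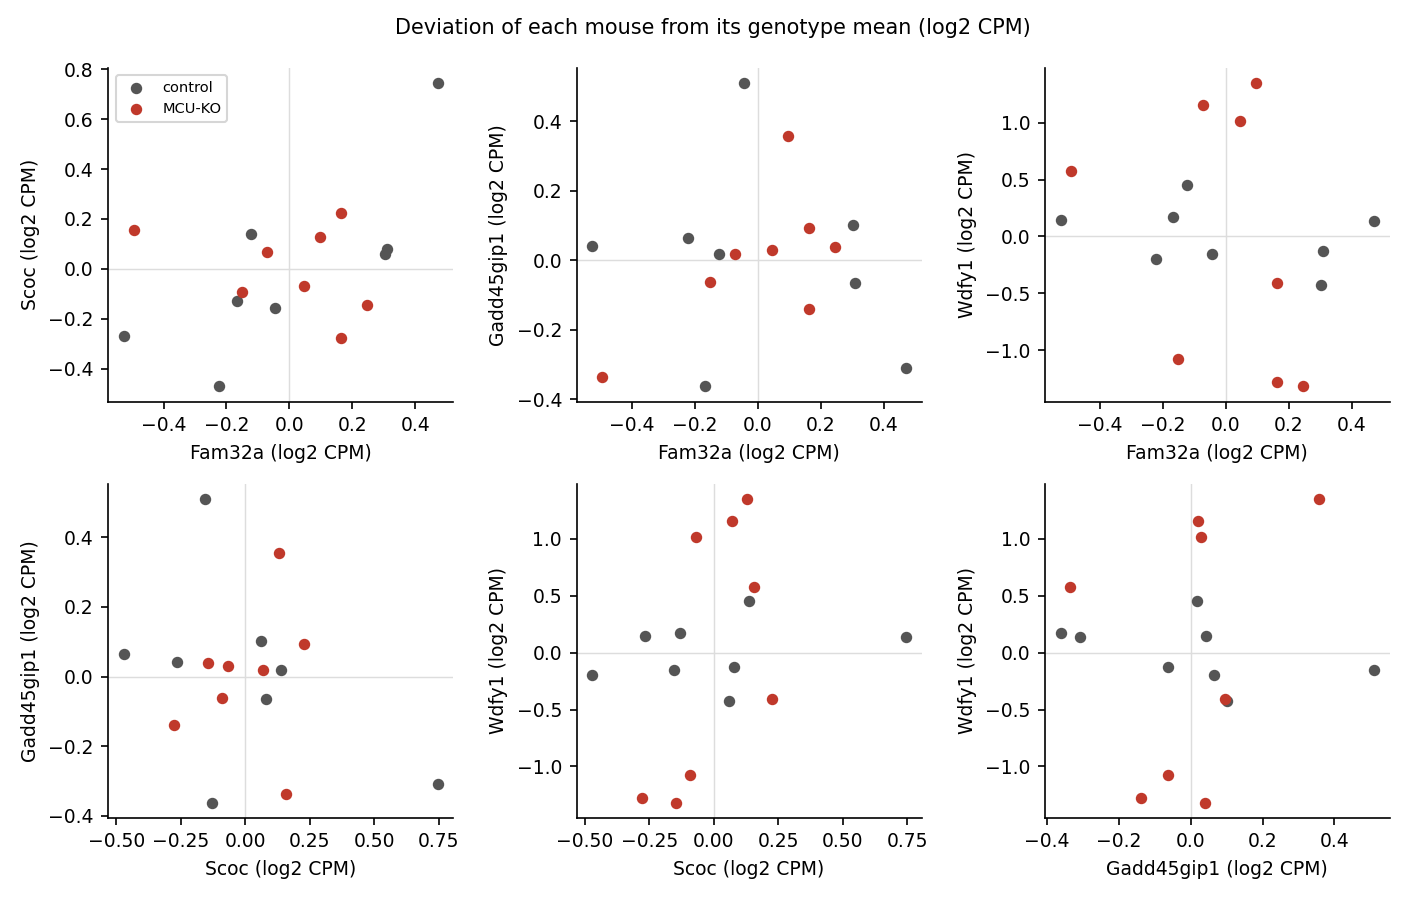
Deviation of each mouse from its genotype's mean in log2 CPM for the 6 pairs of members, 1 point per mouse, with control mice in grey and MCU-KO mice in red. In the panel of Fam32a and Scoc the control points run from lower left to upper right (r = 0.77) and the MCU-KO points do not (r = -0.36), and neither r had an adjusted p under 0.05 in the exact permutation test.

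Genes most like each member were ranked by Pearson's r of the deviations from the genotype means over the 16 mice, among 8876 genes with a mean log2 CPM of at least 3. For Fam32a these were Mrps17 (r = 0.79), Cluap1 (0.78) and Nat9 (0.76), and for Scoc they were Akap7 (0.84), Hipk3 (0.82) and Cyp51 (0.81). For Gadd45gip1 they were Dcaf6 (r = 0.82), Rpap2 (0.79) and Slc45a1 (0.76), and for Wdfy1 they were 3830406C13Rik (0.86), Ankrd37 (0.80) and Cox10 (0.77). The points share libraries, and r is the highest of 8876 and is given as a description. Ankrd37 is on chromosome 8, and none of the 12 genes lies on the chromosome of the member it resembles. Each of the 12 had an adjusted p of 1.00 between the genotypes in edgeR's test.

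Genes that work with the 4 members were examined as 7 lists, chosen with earlier results of these data known. Of 156 genes listed, 145 were tested, and 0 passed edgeR's test, DESeq2's test or limma's test. Of all 12390 tested genes, 22 (0.178%) passed in edgeR, 50 in DESeq2 and 27 in limma-voom. With shares this small, 0 calls does not set the lists apart. Before adjustment 7 of the 145 had a p under 0.05 in edgeR, against 4.41% of all tested genes, and the median log2 fold change was -0.07, against 0.00 over all tested genes.

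For Fam32a, the list held 28 tested proteins of the second catalytic step and C complex of the spliceosome, of which 8 had a higher and 20 a lower mean in MCU-KO mice (median log2 fold change -0.11). The gene with the smallest p was Bcas2, which encodes a protein of the Prp19 complex, with means of 4651.0 ± 753.5 and 5265.6 ± 884.7 normalized counts (SD, n = 8 each) and a log2 fold change of 0.18. For Scoc, 21 genes of Golgi Arl GTPases and autophagy initiation were tested, 6 with a higher and 15 with a lower mean (median -0.04). Wac, a regulator of autophagy, had the smallest p there, with a log2 fold change of 0.40 (edgeR adjusted p = 1.00).

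For Gadd45gip1, 51 genes of the mitochondrial large ribosomal subunit were tested. Of these, 15 had a higher and 36 a lower mean in MCU-KO mice (median log2 fold change -0.10). Before adjustment 6 of the 51 had a p under 0.05, against 4.41% of all tested genes, namely Mrpl3, Mrpl4, Mrpl19, Mrpl20, Mrpl40 and Mrpl46, each with the lower mean in MCU-KO mice. Mrpl46 had means of 2708.5 ± 364.7 and 2184.5 ± 174.8 normalized counts (SD, n = 8 each), with a log2 fold change of -0.31 that did not pass edgeR's test (adjusted p = 0.849). Log2 fold changes of the 51 ran from -0.54 to 0.44. Among 14 mitochondrial translation factors, Lrpprc, which stabilises mitochondrial mRNA, had the smallest p and a log2 fold change of -0.43 (edgeR adjusted p = 1.00). Of the Gadd45 family, whose proteins Gadd45gip1 was named for binding, all 3 genes were tested, and Gadd45b had 149.1 ± 223.2 and 44.1 ± 58.8 normalized counts (SD, n = 8 each).

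For Wdfy1, 11 of 17 genes of TLR3 and TLR4 signalling through the adaptor TRIF were tested, 6 with a higher and 5 with a lower mean (median log2 fold change 0.02). Irf7, an interferon-regulatory transcription factor, had the smallest p, with 221.3 ± 145.4 and 775.2 ± 926.4 normalized counts (SD, n = 8 each), a log2 fold change of 1.81 and an edgeR adjusted p of 1.00. MCU-KO mice ranged from 210.4 to 2999.5 in Irf7. Of 17 tested genes encoding FYVE domain proteins, 9 had a higher and 8 a lower mean, and Wdfy3, a scaffold of selective autophagy, had the smallest p with a log2 fold change of 0.31 (edgeR adjusted p = 1.00).

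The libraries carried the markers of the labelled cells. Counts on genes ranged from 18999107 to 22016362 in control mice and from 14129527 to 20582204 in MCU-KO mice. The 15 dopaminergic markers summed to 16180 to 20867 CPM in control mice and 13690 to 22832 CPM in MCU-KO mice, with at least 80886 normalized counts for Th in each mouse. Markers of other cells were also present, with the 9 oligodendrocyte markers at 2949.5 to 5750.8 CPM and 3469.6 to 6773.6 CPM and the 9 astrocyte markers at 897.3 to 1559.3 CPM and 994.5 to 1668.7 CPM. Microglial markers (8 of 9 tested) reached 52.96 to 168.6 CPM and 53.9 to 305.0 CPM. Also tested were 6 markers of GABA and glutamate neurons and 3 of endothelial cells. In the 6 marker lists 0 genes passed edgeR's or DESeq2's test, against 0.178% of all tested genes in edgeR and 50 of 12390 in DESeq2. Before adjustment 2 had a p under 0.05 in edgeR, against 4.41% of all tested genes. With so few markers, 0 calls does not show equal cell content, and the part of these cells in the 4 genes' counts was not tested. Counts of Ddx3y, a gene of the Y chromosome, were present in 4 of 8 control and 5 of 8 MCU-KO mice. In bulk libraries of this kind, fewer cells with an mRNA and less of that mRNA per cell cannot be told apart.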

How the data were processed

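Counts of mRNA bound to tagged ribosomes of SNc dopaminergic neurons were available for 8 control and 8 MCU-KO mice. The paper gives more MCU-KO mice for its sequencing than were available here. According to the methods and the labels, the authors removed adapters (Trim Galore), mapped the reads to mm10 (STAR) and assigned them to Ensembl genes (HTSeq). The authors deposited whole-number counts per gene and mouse, without normalization. Tool versions, strand setting and annotation release are not given in the sources used here.

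Genotypes were taken from the labels. Symbols, positions and exon lengths came from GENCODE M21, in which 24991 of the 25006 identifiers matched. The genotypes were compared with edgeR 4.0.16 in R 4.3.3 (filterByExpr, TMM normalization, quasi-likelihood test with genotype as the only term), with Benjamini-Hochberg adjustment over 12390 tested genes and a threshold of 0.05. The error of each fold change follows from edgeR's coefficient and F. Normalized counts used DESeq2 1.42.0 size factors, and log2 CPM used a prior count of 2. Alternatives were DESeq2's Wald test, limma 3.58.1 (voom), other normalizations, other filters, other windows, a block for the mouse number and fits without 1 mouse at a time. Transcripts were aligned with BLAST 2.17.0, and tables were made with Python 3.11.15. The fits were tested on simulated counts. The filter kept all 4 genes.

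The genes, gene lists and tests were chosen with earlier results of these data known. The genes named were the 4 members, Mcu, the 3 nearest tested genes on each side, neighbours within 5 Mb that passed the test, the 3 genes most like each member, the genes of each list that passed or else the one with the smallest p, and genes overlapping or sharing sequence with a member. Mt3, Plvap, Wdr83os, Hapln4, Mrpl3, Mrpl4, Mrpl19, Mrpl20, Mrpl40 and Ddx3y were named after their values were seen. Some neighbouring genes are not reported here. Library totals were 14129527 to 22016362 counts, and a count of 3 was taken as the detection floor; this covers counting error only.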

Additional observations from a re-analysis of the deposited data

Results flagged for a closer look

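In 18 groups of 8 mice, a highest or lowest value was compared with the limit of 0.526 for its gap to the nearest other mouse divided by the whole range. Chance passes that limit in about 1 in 20 groups. Control mouse 1 had 7894.16 normalized counts of Scoc, and the next control had 5149.9, a gap of 0.609 of the range. Control mouse 7 had 1863.23 normalized counts of Gadd45gip1, and the next control had 1420.0, a gap of 0.527 of the range. MCU-KO mouse 8 had a total of 14129527 counts, and the next MCU-KO mouse had 19897268, a gap of 0.894 of the range. In that mouse Fam32a, Scoc, Gadd45gip1 and Wdfy1 lay inside the range of the other MCU-KO mice, except that it had the highest Scoc value, at 2346.4 normalized counts.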

How the results depend on the processing

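The number of genes called was 22 in the reported fit, 50 with DESeq2 and 14 with a replicate block for the mouse number, and DESeq2's calls included all 22. Leaving out 1 mouse gave 18 to 24. The number of called neighbours of the chromosome 8 genes was 3 as reported, 9 with DESeq2, 0 with the replicate block, and 1 within a window of 1 Mb. It was 2 to 3 with 1 mouse left out. The correlation of the deviations of same-numbered mice ran from -0.061 to 0.031. The labels do not say what such mice shared, and these correlations cannot show it. Tmem59l passed in 22 of 23 alternative fits, Slc5a5 in 21 and Ocel1 in 7, and the direction of each was kept in all 23. Slc5a5 was lost with limma-voom (adjusted p = 0.0787) and with the block, and Tmem59l with the block. The counts of 0 for the neighbours of Wdfy1, the pathway lists and the correlated pairs stayed 0 in each alternative run. With 1 mouse left out, the log2 fold change was 1.44 to 1.58 for Fam32a, -1.33 to -1.14 for Scoc, -1.36 to -1.22 for Gadd45gip1 and -2.72 to -2.37 for Wdfy1. The other alternatives gave 1.502 to 1.52, -1.27 to -1.24, -1.31 to -1.30 and -2.83 to -2.50. The cause of the differences between tools was not tested. The lowest count of any of the 4 genes in a mouse was 86, far above the floor of 3.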
